A study of Mus musculus with 7 samples.

Results

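The regions described here are stretches of open chromatin that were found in embryonic stomach at both stages studied, in no intestinal or colon library, and not in stomach with a Sox2 knockout (KO). They were chosen by their peaks: overlapping peaks of 7 deposited ATAC-seq lists were merged, and a region was a member if it held a peak in E13 stomach, E16 forestomach and E16 hindstomach and in none of the other 4 lists. This gave 646 of 326695 regions on the 19 autosomes and X. Regions with the same 3 stomach peaks, no intestinal or colon peak, and a KO peak as well numbered 3567 and are called kept regions. The absence of a KO peak is the rule itself and is therefore a description and not a finding. It also means only that no peak was called in 1 library: "lost" would need a signal, and the files hold positions alone.

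ATAC-seq marks DNA that a transposase can reach, mostly promoters and enhancers. SOX2 binds DNA in the embryonic foregut and is known to maintain oesophageal and gastric identity, while CDX2 does so in the intestine. Forestomach forms a squamous lining and hindstomach a glandular one, so the members are regions accessible in both kinds of stomach and at the earlier stage as well.

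The groups, each with 1 library, were Sox2 KO stomach at embryonic day 16 (E16), stomach at day 13 (E13), forestomach and hindstomach at E16, and intestine at E13 and E16 and colon at E16. Per the labels' protocols, the embryos of the wild-type libraries were ShhCre;R26YFP/+, in which Cre from the Shh gene marks gut epithelium with a yellow reporter. For the knockout, the sources used here do not give the Cre driver, how the tissue was isolated or which part of the stomach was taken, and its protocol text ends before that library. E13 cells were sorted from trypsin digests pooled over several reporter-positive embryos; E16 epithelium was released by dispase, peeling and collagenase from forestomach and by EDTA from hindstomach, small intestine and colon. Stage, and forestomach against the other E16 tissues, cannot be told apart from isolation, and with 1 library a group no difference between groups could be tested. Intervals are 95% Wilson intervals, cover counting error over regions only, and do not describe animals. Read depth is unknown. The KO list held 107067 peaks over 22.8 Mb, and the 3 wild-type stomach lists between 87443 and 113117 peaks over 18.3 to 22.2 Mb, so the KO list was not the shortest of the 4 and covered the most sequence. The start window of Sox2 held a peak in all 7 lists, the KO included, and peak positions do not show whether the gene was deleted.

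Sequence was at hand for the few members that reach into a promoter window, 250 bases before to 50 after an annotated gene start. There were 8 such members (1.24%), against 123 kept regions (3.45%). The 4 longest stretches that lie in both a member and a window are shown, because they are the members whose sequence could be read at length. They are at Dll1, which encodes a Notch ligand (chr17:15376948-15377114, minus strand), at Cd80, which encodes a costimulatory ligand of antigen-presenting cells (chr16:38458683-38458924, plus strand), and at 2 predicted genes, Gm30257 (chr2:72733571-72733738, plus strand) and Gm33189 (chr3:142434284-142434425, plus strand), all in GRCm38.p6 RefSeq and read 5′ to 3′. Capitals mark any match to the 15 motifs named in the next paragraph.
Dll1: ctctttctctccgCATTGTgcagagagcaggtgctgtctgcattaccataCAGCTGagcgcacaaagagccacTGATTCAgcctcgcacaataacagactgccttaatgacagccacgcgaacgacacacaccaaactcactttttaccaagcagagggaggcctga
Cd80: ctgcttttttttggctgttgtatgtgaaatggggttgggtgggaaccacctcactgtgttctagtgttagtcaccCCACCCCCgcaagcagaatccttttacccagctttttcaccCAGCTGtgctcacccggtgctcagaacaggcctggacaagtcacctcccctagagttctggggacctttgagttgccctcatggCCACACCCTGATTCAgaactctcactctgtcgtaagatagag
Gm30257: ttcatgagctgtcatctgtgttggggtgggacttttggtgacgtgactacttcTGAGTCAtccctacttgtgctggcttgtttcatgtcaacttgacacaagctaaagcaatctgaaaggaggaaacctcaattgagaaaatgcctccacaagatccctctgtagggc
Gm33189: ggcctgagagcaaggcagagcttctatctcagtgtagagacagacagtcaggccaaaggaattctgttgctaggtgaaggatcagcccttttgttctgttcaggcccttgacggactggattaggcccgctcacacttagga

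An AP-1 motif (TGANTCA, bound by Fos and Jun dimers) lies in 3 of these 4 stretches, and the fourth holds none of the motifs. Over whole windows of 300 bases, read on both strands, AP-1 was found in 3 of 8 windows at members (37.5%, 13.7 to 69.4), in 29 of 138 at kept regions (21.0%, 15.0 to 28.6) and in 7.85% of all 32585 windows. The E-box CAGCTG was found in 3 of 8, in 36 of 138 (26.1%) and in 16.4% of all windows. The SOX motif ACAATG lay in 1 of 8 member windows, that of Dll1, in 11 of 138 kept windows (7.97%) and in 12.2% of all windows. Its longer form ACAATGG, which contains it, lay in 0 of 8 member windows, 3 kept windows and 3.68% of all windows. With 8 windows the intervals are wide. Each of them holds the share at kept regions. Of the 15 motifs, only AP-1 has an interval at members above the share over all windows. At kept regions the intervals of AP-1, the E-box and the forkhead and KLF motifs named below lie above it, and that of GATA lies below. No test was made. Some of the 8 windows share few bases with their member, down to 1, so a motif in a window can lie outside the member. The other motifs were ATGCAAAT for POU factors, AGATAA for GATA factors, TGTTTAC for forkhead factors, GGGNGTGG for KLF factors, AACNGGTT for GRHL factors, GGAATG for TEAD factors, GGAAGT for ETS factors, TTTATNG for CDX factors, CAAAGTCCA for HNF4, TGTGGT for RUNX factors and GGGCGG for SP factors, each found in at most 2 of the 8 member windows.

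Of the 4213 regions with the 3 wild-type stomach peaks and no intestinal or colon peak, 646 had no KO peak, which is 15.3% (14.3 to 16.5). The same count was made with each wild-type stomach list in the place of the KO. Hindstomach was missing from 855 of 4422 regions that the KO, E13 stomach and forestomach held (19.3%, 18.2 to 20.5), forestomach from 2704 of 6271 (43.1%, 41.9 to 44.3), and E13 stomach from 3734 of 7301 (51.1%). The KO was thus the least often missing of the 4, and its share was below that of a wild-type E16 hindstomach library. The lists differ in length, and that was not adjusted for here.

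**Figure D1:**
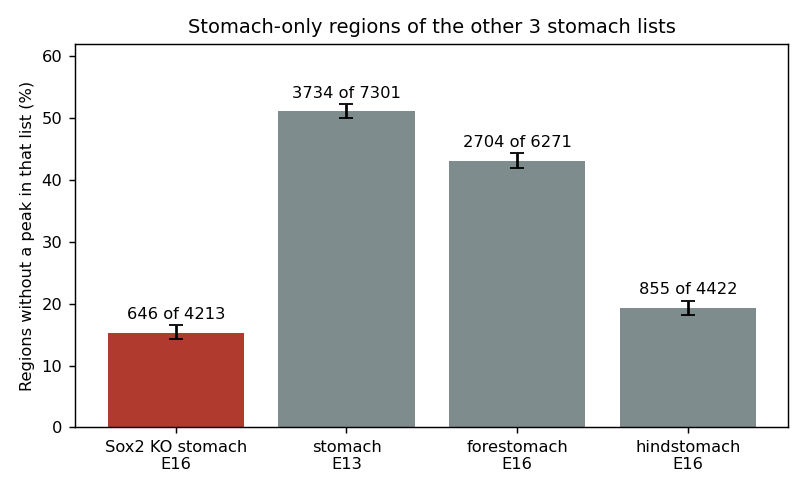
Share of regions that lack a peak in the list named below each bar, among regions held by the other 3 stomach lists and by no intestinal or colon list (y axis, percent; error bars, 95% Wilson intervals; 1 library per list). The KO bar stands at 15.3%, below hindstomach at 19.3%, forestomach at 43.1% and E13 stomach at 51.1%.

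Presence at E13 went with presence in the KO. Regions of forestomach and hindstomach alone, without an E13 stomach or intestinal peak, had no KO peak in 6486 of 10220 cases (63.5%, 62.5 to 64.4), against 15.3% where E13 stomach held a peak. The former regions have a peak in fewer lists, and the sets were not matched for peak width. Whether stage itself plays a part was not tested. Among all 31388 regions with the 3 stomach peaks, whatever the intestinal lists held, 2860 (9.11%) had no KO peak. Where E13 intestine was the only intestinal list with a peak, 99 of 3175 lacked a KO peak (3.12%), and where E16 intestine and colon but not E13 intestine held one, 727 of 1774 did (41.0%, 38.7 to 43.3). The members' share lay between these values. Where colon was the only such list with a peak, 138 of 883 lacked a KO peak (15.6%, 13.4 to 18.2), a share near that of members. The remaining patterns ran from 1.84% to 8.05%.

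Members were narrow. Their merged width had a median of 263 bp (quartiles 202 and 343), against 325 bp (251 and 427) in kept regions. The merged width of a kept region also spans its KO peak, so part of that difference can follow from the rule. The peaks of each wild-type stomach list compare like with like. The E13 stomach peak was the narrowest of the 3, with a median of 120 bp in members against 159 bp in kept regions, and in 120 members (18.6%) it had the smallest width found in its list, 77 bp, against 285 kept regions (7.99%). Hindstomach peaks had medians of 160 bp in members and 208 bp in kept regions. Forestomach peaks differed least, at 203 bp in members and 218 bp in kept regions. The median stretch common to all 3 peaks was 85.0 bp in members and 108 bp in kept regions, and in 50 members (7.74%) the 3 peaks were linked without any base common to all 3, against 172 kept regions (4.82%).

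Width went with the KO peak across its whole range. Sorted by their narrowest wild-type stomach peak and cut into 5 groups of near equal size, the regions with 77 to 91 bp had no KO peak in 229 of 843 cases (27.2%, 24.3 to 30.3). The next groups stood at 17.6%, 13.2% and 11.4%, and the widest, 185 to 646 bp, at 62 of 843 (7.35%, 5.78 to 9.32). Width is not signal, and how far weak signal accounts for membership was not tested.

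**Figure D2:**
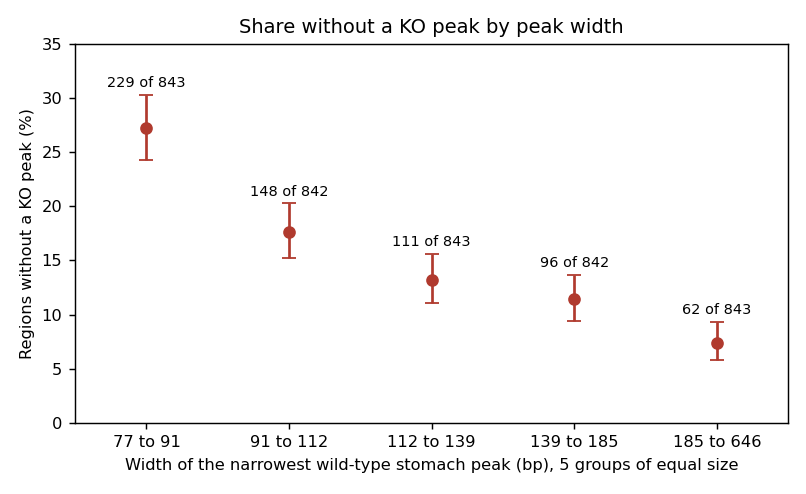
Share of stomach-only stable regions without a KO peak (y axis, percent) in 5 groups by the width of the narrowest wild-type stomach peak (x axis, bp). Points are shares of regions, bars 95% Wilson intervals, and labels give members of all regions. The share stood at 27.2% in the narrowest group and at 7.35% in the widest.

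The nearest KO peak to a member lay at a median of 7445 bp (quartiles 2236 and 18637). It lay within 500 bp of 66 members (10.2%) and within 10000 bp of 371 (57.4%). For the regions missing only from hindstomach, the nearest hindstomach peak lay at a median of 4913 bp, with 16.4% within 500 bp. For those missing only from forestomach the median was 6345 bp, with 11.8% within 500 bp, and for those missing only from E13 stomach it was 5540 bp, with 10.0%. At the threshold, the member closest to a KO peak lay at Celsr3, a cadherin of planar cell polarity (chr9:108827023-108827274), 10 bp before a KO peak of 96 bp at 108827284 to 108827380. The kept region with the smallest shared stretch lay at Tmem92, a membrane protein gene (chr11:94786368-94786725), where the KO peak overlapped a stomach peak by 8 bp. Such cases were few: of 3567 kept regions 8 shared under 50 bp with a stomach peak, and the median was 186 bp.

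**Figure D3:**
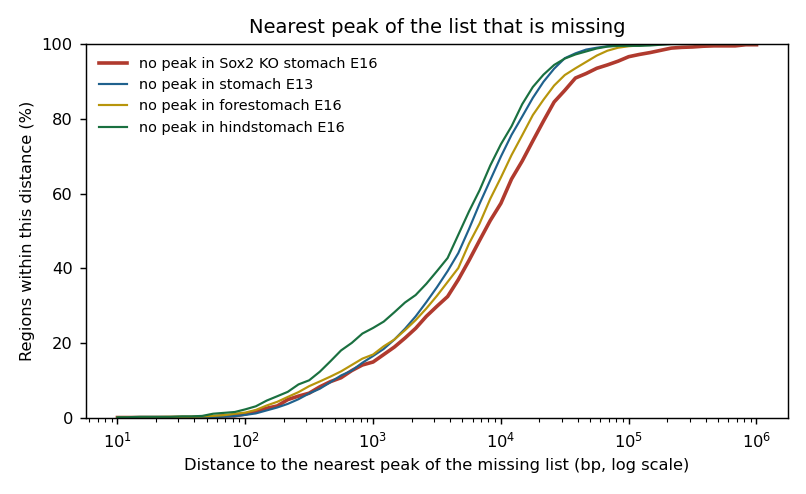
Cumulative share of regions (y axis, percent) by distance to the nearest peak of the list they lack (x axis, bp, log scale), for regions missing from the KO (red) or from 1 of the 3 wild-type stomach lists. The KO curve runs lowest at 10000 bp, at 57.4%, against 64.3% to 73.2% for the others.

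Most members lay away from gene starts and ends. The zone within 1 kb of the first or last base of a protein-coding gene, called a gene end, held 31 of 646 members (4.80%, 3.40 to 6.73), against 265 of 3567 kept regions (7.43%, 6.61 to 8.34), 34.9% of all regions with the 3 stomach peaks and 8.32% of all merged regions. Gene bodies held a further 297 members (46.0%) and 48.4% of kept regions. Farther than 100 kb from any protein-coding gene were 106 members (16.4%, 13.8 to 19.5), against 386 kept regions (10.8%, 9.84 to 11.9), 7.74% of all regions with the 3 stomach peaks and 62059 of all 326695 merged regions, a larger share than that of members. In each of the 5 width groups the share at gene ends was lower in members than in kept regions, from 4.37% against 7.82% in the narrowest to 1.61% against 4.35% in the widest, on counts of 1 to 10 members. By chromosome, the share of stable stomach-only regions without a KO peak ran from 11.7% on chromosome 17 (19 of 163) to 18.9% on chromosome 2 (66 of 350), and their intervals, 7.59 to 17.5 and 15.1 to 23.3, overlap.

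Members were spread thinly over genes. The 540 members within 100 kb of a protein-coding gene fell to 513 genes, 2.50% of the 20548 genes with any region. Of these genes 489 had 1 member, 22 had 2, and Rad51b and Nkain3 had 3 and 4. Another member lay within 100 kb of 54 members (8.36%). A kept region lay within 100 kb of 243 members (37.6%), and another kept region within 100 kb of 1489 kept regions (41.7%). Of the 513 genes 176 (34.3%) also had a kept region, while 12.3% of all genes with a region did. Genes with a member were long, with a median of 81.8 kb against 57.4 kb for genes with a kept region and 18.8 kb for all, and had a median of 27.0 regions, against 22.0 for genes with a kept region. Long genes offer more room for regions. At the gene starts themselves KO peaks were common: of 407 genes with a member and a promoter window in the table used, 325 (79.9%, 75.7 to 83.5) had a KO peak in a start window. For the same genes this share was 74.9% in E13 stomach, 65.8% in hindstomach and 60.9% in forestomach. Genes with a window, a kept region and no member stood at 82.5% in the KO, and all protein-coding genes with a window at 64.3%.

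Nkain3, which encodes a protein that interacts with the sodium pump, had the most members, 4, and no kept region. Under each of 2 settings, the widest peaks at equal list length and no peaks under 108 bp, it had 2 members, the same number as several other named genes. The widest lay inside the gene at chr4:20282592-20283027, with peaks of 335 bp in E13 stomach, 435 bp in forestomach and 375 bp in hindstomach that shared 325 bp. The nearest KO peak lay 64251 bp away. Over its 670 kb and flanks the gene had peaks in 10 regions in the KO, 19 in E13 stomach, 18 in forestomach and 19 in hindstomach, and in 14, 18 and 30 regions in E13 intestine, E16 intestine and colon. Its member at chr4:20777684-20777873 was a near miss, with a KO peak of 650 bp starting 57 bp beyond it.

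Sema5a, an axon-guidance semaphorin, held the member with the longest stretch common to all 3 peaks. At chr15:32401883-32402572, inside the gene, E13 stomach had a peak of 429 bp, forestomach of 582 bp and hindstomach of 594 bp, with 334 bp in common, and the nearest KO peak lay 35201 bp away. No other list had a peak within 3 kb of its centre. Its other member, with peaks of 211, 108 and 127 bp, shared 38 bp. The gene had peaks in 19 regions in the KO, against 19, 21 and 22 in E13 stomach, forestomach and hindstomach, so its total in the KO was like that of the wild types. Beside the widest Nkain3 member, the next by common stretch lay inside Spop, a substrate adaptor of a ubiquitin ligase (chr11:95432780-95433266, 328 bp in common), Aspa, which encodes an enzyme of N-acetylaspartate breakdown (chr11:73318516-73318875, 326 bp), and Grb14, an adaptor of the insulin receptor (chr2:65008309-65008816, 325 bp).

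Adh7 encodes an alcohol dehydrogenase of upper digestive epithelium that also oxidises retinol. It had 2 members inside the gene and no kept region. At chr3:138225219-138225450 the peaks measured 113 bp in E13 stomach, 215 bp in forestomach and 106 bp in hindstomach, and at chr3:138225874-138226169 they measured 99, 160 and 89 bp. In neither region did the 3 peaks share a base, and neither was a member once 50 bp in common was required: each was a chain in which forestomach overlapped both others. A narrow KO peak of 114 bp lay 1989 bp before the first, at a site that E13 stomach, hindstomach and E16 intestine held too. Adh7 had peaks in 6 regions in the KO and in 8, 5 and 8 regions in the wild-type stomach lists, and its start window held a peak in the KO, forestomach and hindstomach.

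Smcp, a sperm mitochondrial protein gene within the epidermal differentiation complex, had 2 members 3361 and 3851 bp from it. At chr3:92579628-92580015 the peaks measured 165 bp in E13 stomach, 283 bp in forestomach and 262 bp in hindstomach. At chr3:92580288-92580505 they measured 133, 149 and 130 bp. None of the 6 regions assigned to Smcp had a KO peak, and the nearest one lay 25109 bp from the first member. The wild-type stomach lists had peaks in 3, 2 and 3 of these regions and E16 intestine and colon in 2 each. The gene had few peaks in any list.

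**Figure D4:**
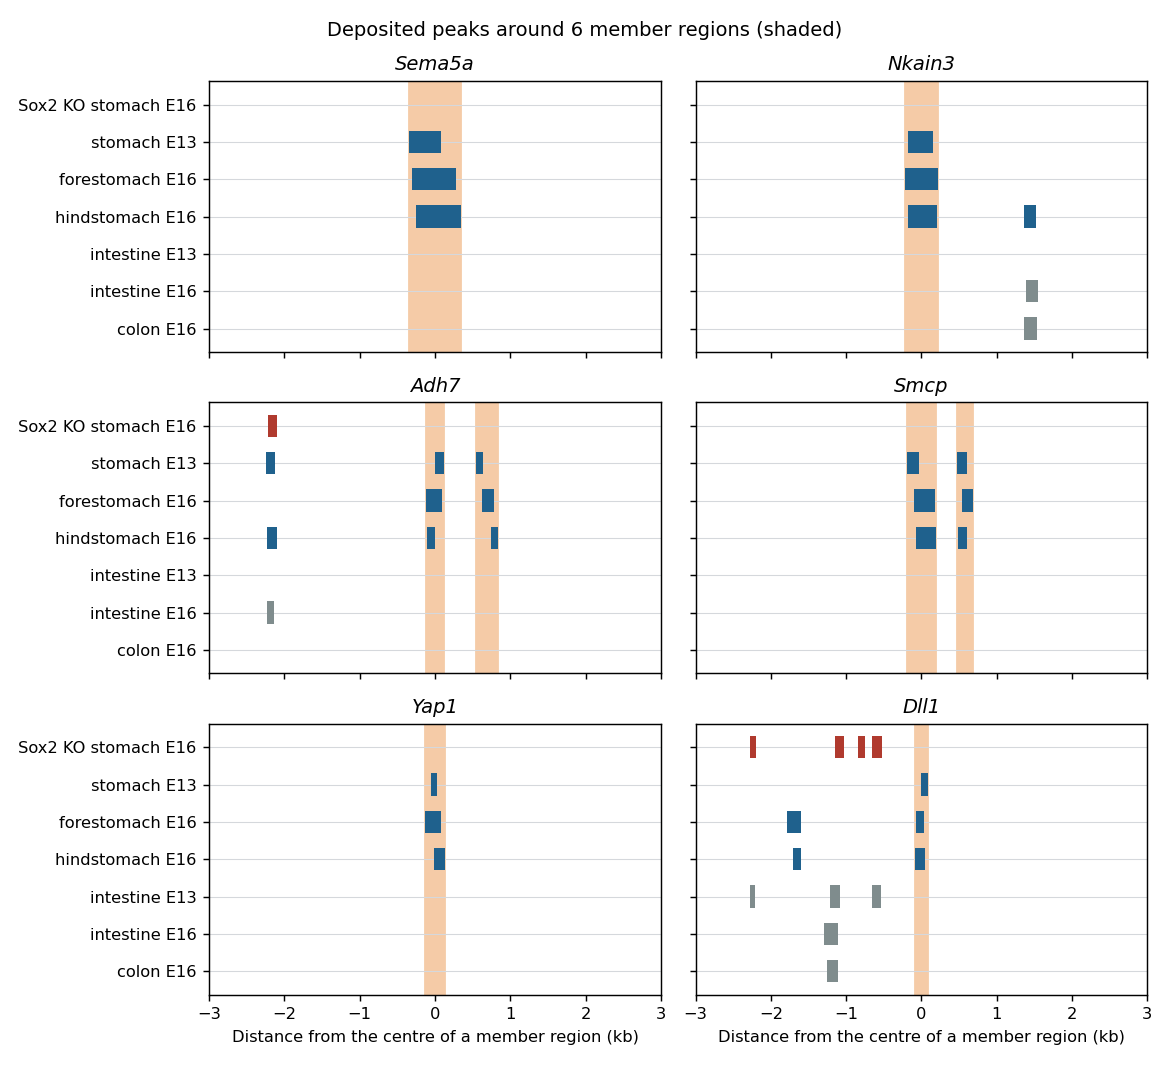
Deposited peaks of the 7 lists (rows, KO at the top) within 3 kb of the centre of a member (x axis, kb) at 6 genes; bars are peaks at their true width, and members are shaded. At Sema5a and Nkain3 the 3 stomach peaks share 334 and 325 bp, at Adh7 they form chains, and at Dll1 the KO peaks lie beside the member.

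Of the other genes with 2 members, those named by the rule and its tie-break were Epha4, an ephrin receptor, Lama4, a laminin chain, Nrxn3, a neurexin, Pdrg1, Pdzd2, Zfp366, a zinc finger protein, and Cdh26, a cadherin. Of these Cdh26 had 1 kept region and the rest none. Some members lay outside the gene: those of Cdh26 at 41439 and 97889 bp, those of Pdrg1 at 5320 and 5799 bp and 1 of Zfp366 at 32111 bp. With gene bodies extended by 10 kb, Cdh26 had 0 members. Lama4 had peaks in 6 regions in the KO, against 11, 7 and 8 in E13 stomach, forestomach and hindstomach, and Zfp366 in 4, against 5, 5 and 7. Epha4 and Pdzd2 ran the other way, with 20 KO regions against 12, 14 and 15, and 39 against 27, 21 and 27. A missing peak at a member was therefore found both at genes with fewer and at genes with more KO regions than wild-type ones. Rad51b, a gene of DNA repair by recombination, had 3 members, 3 kept regions and 152 regions in all, of which 70 had a KO peak and 58, 41 and 52 a peak in the wild-type stomach lists. Its members lay inside the gene and 31424 and 77003 bp from it. Rad51b had 1 member with the widest peaks, without peaks under 108 bp, or with gene bodies extended by 10 kb.

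The rule also named genes whose stable stomach regions were all kept. They were picked by these same counts. Of all 4213 stable stomach-only regions only 15.3% lacked a KO peak, so 5 or 6 kept regions without a member are not unusual. Ano1, Rere and Robo1 each had 1 member with the widest peaks at equal list length, and Rere and Robo1 also without peaks under 108 bp. Zfp423, a transcription factor of BMP-responsive cells, had 6 kept regions and no member. Ano1, a calcium-activated chloride channel, Atp8b1, a phospholipid flippase, Plcb1, a phospholipase, Rere, a nuclear corepressor, and Robo1, a receptor of Slit proteins, had 5 each and no member. Sox2 had no member and 1 kept region, at chr3:34747395-34748104, 94934 bp from the gene, with peaks of 653 bp in the KO and of 653, 404 and 333 bp in E13 stomach, forestomach and hindstomach. Cdx2, the intestinal master regulator, had neither.

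Gene lists of gut regulators, pathways and cell type markers held between 0 and 3 members each. Over the 546 listed genes that were found, counted once, 21 genes had a member (3.85%), against 2.37% of all protein-coding genes, and 25.3% had a kept region, against 11.7%. Counted as regions, 21 members stood beside 196 kept regions (9.68% without a KO peak, 6.42 to 14.3), against 540 and 3181 over all genes (14.5%, 13.4 to 15.7). The median number of members per gene was 0 in every list and over all genes. No listed gene had 2 or more members, as the naming rule asked, so the genes named from the lists were chosen after their values were seen. Stomach and foregut transcription factors had 1 member, inside Gata6, beside 16 kept regions. Glandular stomach genes had 0 members and 9 kept regions, and squamous and basal epithelium genes had 1 member, near the barrier regulator Grhl3, and 4 kept regions. No member was assigned to genes of the Hedgehog, BMP and TGF-beta, FGF and EGF receptor or retinoic acid pathways, which had 7, 17, 13 and 8 kept regions. The intervals of their shares without a KO peak reach 35.4%, 18.4%, 22.8% and 32.4%. Each of these holds the 14.5% over all genes, so none of these lists is set apart by its count. The Wnt pathway had 1 member, near Apc, which restrains beta-catenin, and 10 kept regions.

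Genes of YAP, TAZ and TEAD, the nuclear arm of Hippo signalling, had more members than kept regions, 3 and 2 over 20 genes, the reverse of all genes, but with 5 regions in all the interval of the share without a KO peak spans 23.1 to 88.2%. Inside Yap1, the coactivator itself (chr9:7940731-7941006), peaks measured 77 bp in E13 stomach, 211 bp in forestomach and 157 bp in hindstomach and shared 41 bp, and the nearest KO peak lay 10608 bp away. At one end of Tead4, the DNA-binding partner (chr6:128227701-128227861), they measured 151, 108 and 91 bp. Inside Ajuba, a LIM protein that restrains LATS kinases (chr14:54573290-54573505), they measured 89, 134 and 124 bp, and a KO peak of 417 bp ended 46 bp before the region. The start windows of Yap1 and Ajuba held a KO peak, and Tead4 had no window in the table used. None of the 3 was a member under all settings tried.

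Among adhesion and junction genes there were 3 members and 16 kept regions. Dst, a plakin of hemidesmosomes, had a member at chr1:34150641-34151031 with peaks of 262 bp in E13 stomach, 390 bp in forestomach and 230 bp in hindstomach. The member nearest to Cd44, the hyaluronan receptor, lay 57691 bp from it (chr2:102959360-102959606), with peaks of 115, 246 and 215 bp. That nearest to Itgb8, an integrin chain, lay 29962 bp away, with peaks of 77, 289 and 89 bp that had no base in common. Of the SOX family Sox5 (chr6:144710890-144711070, with peaks of 144, 142 and 180 bp) and Sox3 (chrX:60941952-60942250, with peaks of 224, 298 and 120 bp, 48522 bp from the gene) had 1 member each, beside 10 kept regions in the family. Pan-epithelial genes had 1 member, inside the tight-junction gene Tjp1, and 12 kept regions. AP-1, KLF, ETS and stress factors had 1 member, near the oxidative stress regulator Nfe2l2, and 19 kept regions. Homeobox, MEIS and PBX genes had 1 member, inside the coactivator gene Eya2, and 18 kept regions.

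Dll1, the only member gene of the Notch list, had its member 16 bp upstream of the gene's annotated start, shown in sequence above. Peaks there measured 84 bp in E13 stomach, 108 bp in forestomach and 132 bp in hindstomach and shared 35 bp. The KO had 4 peaks of 71 to 128 bp within 3 kb of it, all inside the gene, the nearest 439 bp away at 15376381 to 15376509, and E13 intestine had a peak at 15376369 to 15376498. With a KO peak within 500 bp counted as present, Dll1 had no member. A start window of Dll1 held a peak in all 7 lists, the KO included, although no KO peak reached the window shown above. The gene had peaks in 13 regions in the KO, against 5, 6 and 7 in E13 stomach, forestomach and hindstomach. The Notch list had 12 kept regions.

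Among markers of other cell types, blood and immune markers had 2 (near Ptprc, the pan-leukocyte antigen, and inside Kit, a growth factor receptor), endothelium markers 1 (inside Kdr), liver, lung and pancreas markers 1 (inside Afp), mesenchyme and neural crest and neuron markers none. Beside them stood 3, 4, 4, 2 and 2 kept regions. The genes with a member made up 13.3% of the 15 blood and immune, 8.33% of the 12 endothelium and 6.67% of the 15 liver, lung and pancreas markers, against 2.37% of all genes, on 1 or 2 genes a list. Enterocyte genes had 1 member, near the glucose transporter gene Slc5a1, and 3 kept regions. Secretory and endocrine genes and ribosomal protein genes had no member, with 4 and 3 kept regions. The part of other cell types in the lists was not tested.

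**Figure D5:**
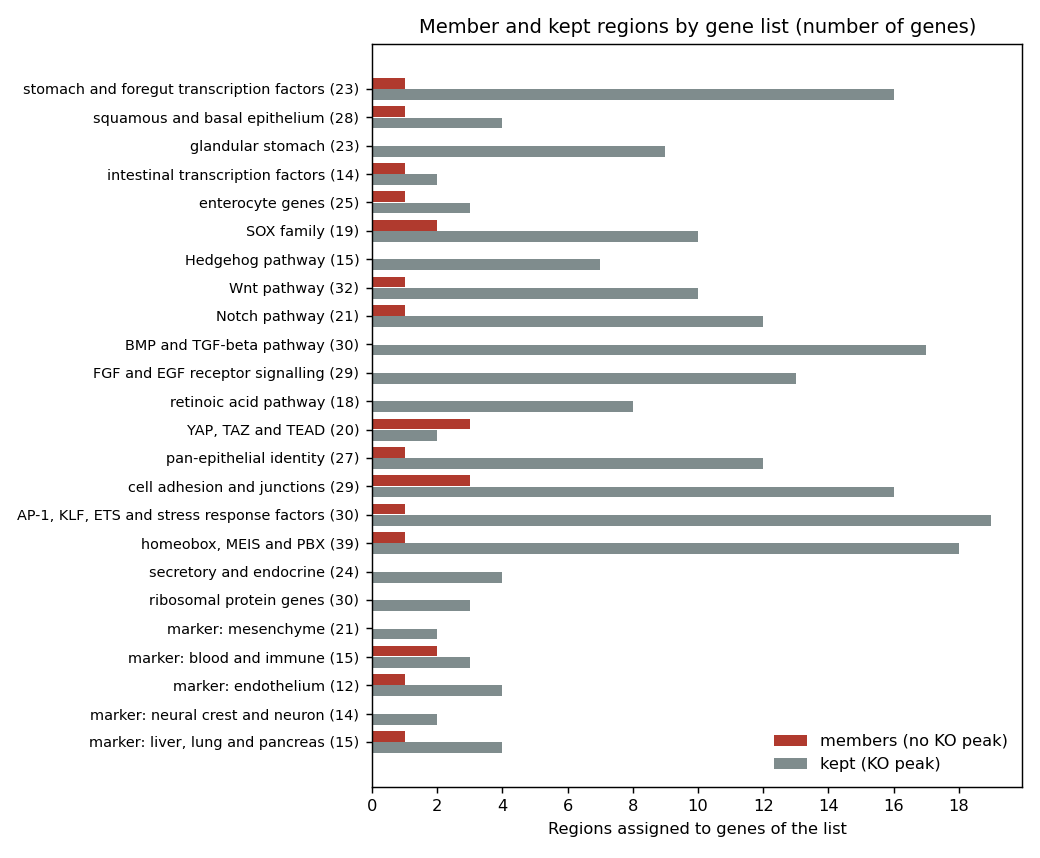
Regions assigned to genes of each list (x axis, counts; rows, lists with the number of genes found), members in red and kept regions in grey. Members reach 3 in the YAP, TAZ and TEAD and the adhesion lists and 0 to 2 elsewhere, and kept regions reach 19.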

How the data were processed

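The 7 mouse ATAC-seq libraries, 1 for each group, gave 7 peak lists. Per the submitters' processing notes, the tools were cutadapt, Bowtie2 and MACS2 and the build GRCm38 (mm10); the sources used here give no versions, thresholds or pooling. The deposited lists hold chromosome, start and end of each peak and no height, score or count, so depth is unknown. Positions were used and printed as deposited, with no statement of whether they count from 0 or 1.

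Peaks on chromosomes 1 to 19 and X were merged where they overlapped by 1 bp or more, and regions were given to the protein-coding gene whose body was nearest, up to 100 kb away (RefSeq, GRCm38.p6). Promoter sequences, from the RefSeq table of that build, cover 17273 of 21627 protein-coding genes and no gene of 1 chromosome. Genes without a window, which lie on other chromosomes too, were left out of gene-start shares. No genome sequence was used, so members outside promoter windows have none. The steps were tested on made-up peak lists with known classes. Scripts ran in Python 3.11.15 with pandas 2.3.3, numpy 2.4.6 and scipy 1.17.1, and figures were drawn with matplotlib 3.10.9.

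The members, gene lists and motifs were chosen with earlier results of these data known. Named genes are 12 with the most members (ties, here all genes with 2, were settled by fewer kept regions, then by the alphabet), the 6 with the largest excess of members over kept regions and of kept regions over members, up to 3 genes per list with 2 or more members each (no listed gene had that many), Sox2 and Cdx2. Predicted genes were left out, and listed genes with 1 member were named after their values were seen. Of 549 listed genes 546 were found. Gene starts came from promoter windows, as strand was lacking elsewhere. The result for 1 listed gene is not reported here.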

Additional observations from a re-analysis of the deposited data

How the results depend on the processing

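The number of members stayed between 519 and 652 under every setting tried. The members remained less often at gene ends than kept regions, and narrower in merged width, which in kept regions also spans the KO peak. Which regions were members depended more on the setting: 404 of 646 (62.5%) were still members when each list was cut to its 81179 widest peaks, and 302 (46.7%) with peaks under 108 bp left out, a setting chosen after seeing the data. The share without a KO peak was 17.2% with the widest peaks, 13.8% when a KO peak within 500 bp counted as present, and 14.1% when the 3 stomach peaks had to share 50 bp. Median widths of members and kept regions were 282 and 344 bp with the widest peaks and 279 and 348 bp without peaks under 108 bp; kept regions had 334 bp with peaks up to 100 bp apart joined. Gene ends held 3.28% of members when a near KO peak counted, 10.6% of kept regions without narrow peaks, and 2.32% of members and 4.46% of kept regions in a window of 500 bp. Over the 20 genes named by rule, members numbered 27, against 17 with the widest peaks, 3 of them gained at Ano1, Rere and Robo1, and 14 without narrow ones, 2 of them gained at Rere and Robo1. Adh7 and Zfp366 had none in either, and Epha4 none without narrow peaks; Adh7 also had none when the 3 peaks had to share 50 bp. At listed genes members numbered 21 in the main count and 28 without narrow peaks. Some of the latter lay at listed genes with no member in the main count. Joining at 50 bp and leaving out X moved no summary value. No paired analysis was possible because each group has 1 library. Unknown depth limits every statement on a missing peak.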

Other observations

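Of the 646 members, 242 (37.5%) were members under each of the 6 region settings in which the joining, the list length, the smallest width, the common stretch or the distance to a KO peak was changed. They were chosen after the data were seen and are described without a test. The settings favour wide peaks, long common stretches and distant KO peaks, so the widths, stretches and distances below follow in part from the choice. The median width of the 242 was 300 bp and their common stretch 123 bp. Their E13 stomach, forestomach and hindstomach peaks had medians of 171, 236 and 190 bp, and the nearest KO peak lay at a median of 10654 bp. Gene ends held 6 of them (2.48%), and 46 lay farther than 100 kb from a protein-coding gene. They include the members with the longest common stretches, at Sema5a, Spop, Aspa, Nkain3 and Grb14.

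Among the nearest genes of these 242 regions were regulators outside the rule for named genes, picked after their values were seen. A nearest gene can lie up to 100 kb from its region, and the distances in brackets or named below are those to KO peaks, not to genes. Snai2, a repressor of epithelial genes, had one at chr16:14800231-14800599 with the nearest KO peak 84983 bp away, Foxp1, a forkhead factor, at chr6:98876469-98876783 (33194 bp), Rb1, the retinoblastoma gene, at chr14:73201556-73201764 (14015 bp), Wnt5b, a Wnt ligand, at chr6:119536006-119536640 (7183 bp), and Hes3, a relative of Notch targets, at a gene end at chr4:152292445-152292685 (4283 bp). Of the members at listed genes named in the report, those at Dst, Cd44, Sox5, Sox3, Kdr, Ptprc and Slc5a1 belong to the 242. Those at Yap1, Tead4, Ajuba, Dll1, Gata6, Grhl3, Apc, Itgb8, Kit, Afp, Tjp1, Nfe2l2 and Eya2 do not. Neither member at Adh7, a gene on none of the lists, belongs to the 242.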
